A study of Mus musculus with 8 samples.

Results

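Pseudouridine synthases are the enzymes that turn uridine in RNA into its isomer pseudouridine, and 10 of their genes were followed: Pus10, Pus1, Pus3, Pusl1, Trub1, Trub2, Dkc1, Pus7, Pus7l and Rpusd4. Their rows in the count table were found by gene symbol. All 10 were among the 12211 genes of the deposited count table, and all 10 passed the filter on low counts that left 11909 genes to test. They were measured in stranded total RNA libraries from mouse embryonic fibroblasts: 4 labelled PUS10KO and 4 control libraries whose genotype label is WT, numbered 1 to 4 in each genotype. Both groups were cultured the same way per the labels, and no other allele or agent is named. Which part of Pus10 was targeted, and whether a genotype stands for 1 clone, several lines or several embryos, was not given in the sources used here. Nothing in the labels ties a library to a culture or animal of its own, and the p-values thus refer to the spread between libraries, which can be technical.

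Pseudouridine is the commonest modified base of cellular RNA, and it stiffens the backbone of tRNA, rRNA and spliceosomal RNA. Most of these enzymes work alone and find their uridines by the shape and sequence of the RNA, whereas dyskerin, the product of Dkc1, is led to its sites by guide RNAs. The enzymes fall into families named after bacterial relatives. Pus1, Pus3 and Pusl1 are of the TruA family, Trub1, Trub2 and Dkc1 of the TruB family, Pus7 and Pus7l of the TruD family, and Rpusd4 of the RluA family, while Pus10 forms a family of its own that bacteria lack. The title of the series links PUS10 to tRNA fragments, retrotransposons and inflammation, and the members show what the other synthases did in the same cells.

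Total counts ran from 17561114 to 24563499 per library. The 12 fibroblast markers were all detected, but 5 of them fell in PUS10KO by the edgeR test described below, where 7.11% of all genes tested did. The summed level of the 12 was 10740.0 to 16754 CPM in PUS10KO libraries and 17066 to 21772 CPM in control libraries. CPM here are counts scaled to library size with TMM factors. Thy1, a fibroblast surface glycoprotein, had 0.0237 ± 0.0281 CPM in PUS10KO and 21.8 ± 0.919 CPM in control (SD, n = 4 each), the lowest log2 fold change of the list. Pdgfra, a growth factor receptor, had the highest, at 101 ± 21.1 CPM in PUS10KO and 49.8 ± 20.7 CPM in control (edgeR adjusted p = 0.0605). With the replicate block described below 1 marker, Pdgfra, rose (edgeR adjusted p = 0.00247) and 6 fell, where 19.1% of all genes tested rose and 19.9% fell. Of 32 markers of leukocytes, endothelium, epithelium, neural cells and skeletal muscle 12 had a row to test. Cd14, a macrophage marker, rose, but the other tested markers of its list had negative log2 fold changes. These were -0.34 for Csf1r, -0.37 for Cd68 and -1.32 for Lyz2 (edgeR adjusted p = 0.831, 0.475 and 0.157). With the block Lyz2 fell too (adjusted p = 0.0108). The 12 together had summed levels of 101 to 136 CPM in PUS10KO and 269 to 481 CPM in control. Without the block 1 of the 12, Cd14, rose and 2, Krt19 and Nes, fell, where 5.90% of all genes tested rose and 7.11% fell. With the block Cd14 rose, and Krt19 and Nes fell. Besides Lyz2, Kdr (log2 fold change -0.85, edgeR adjusted p = 0.0260) and Map2 (-1.69, edgeR adjusted p = 0.00196) also fell in that fit. Krt19, a keratin, had 16.3 ± 4.22 CPM in PUS10KO and 120.0 ± 68.2 CPM in control. Nes, a neural progenitor filament, had 33.8 ± 12.7 CPM in PUS10KO and 133 ± 58.8 CPM in control. The Y-linked genes Eif2s3y, Uty and Kdm5d summed to 149.6 to 199 CPM in PUS10KO and 0 to 0.164 CPM in control, so sex chromosomes and genotype coincided. The part of these differences in the values below was not tested. In such bulk samples, fewer cells of a type and less RNA per cell cannot be told apart.

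Across the 10 genes, Pus10 fell in PUS10KO. The other 9 did not pass the test with genotype as the only term, while 4 of them rose with the replicate block. Genotypes were compared over the 11909 genes by the quasi-likelihood test of edgeR, with p-values adjusted after Benjamini and Hochberg, and a gene rose or fell where its adjusted p was under 0.05. That was so for 13.0% of all genes tested, 5.90% higher and 7.11% lower in PUS10KO. Unadjusted p-values under 0.05 were found for 0 of the 9. DESeq2, which called 19.9% of all genes, likewise called Pus10 and none of the 9. Their log2 fold changes (PUS10KO over control) had a median of 0.20, with 8 positive and 1 negative, against a median of 0.01 over all genes tested. Because libraries of the same number deviated together, a second fit took the number as a replicate block. With the block Dkc1, Pus7, Pus1 and Pus3 rose, 4 of the 10, where 19.1% of all genes rose, 19.9% fell and 39.0% passed in either direction. Pus10 fell in that fit too, and 5 members passed in neither fit.

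**Figure D1:**
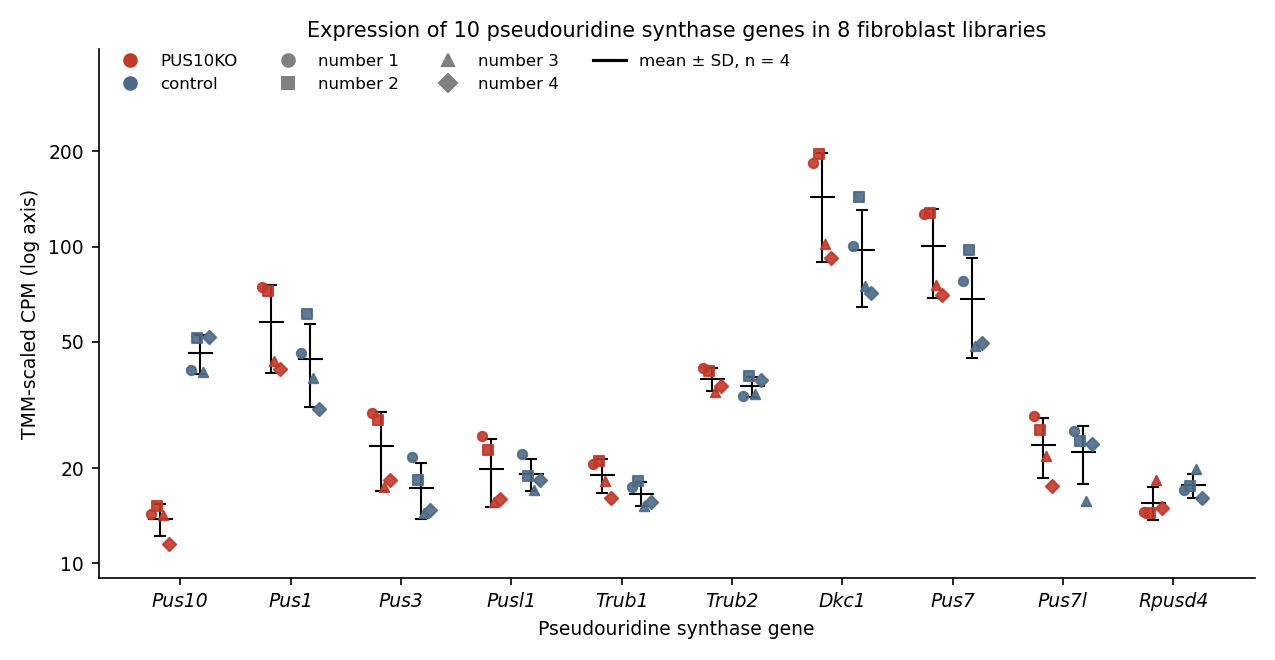
TMM-scaled CPM (log axis) of the 10 genes in each PUS10KO library (red, left) and control library (blue, right), with the number of the library given by the marker and the mean ± SD (n = 4) in black. Pus10 is the gene whose genotypes do not overlap, at 11.5 to 15.2 CPM in PUS10KO and 40.1 to 51.8 CPM in control.

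Pus10 encodes the enzyme that the series is named for. It modifies the T-loop of tRNAs, and in human cells it has also been reported to act in the nucleus on microRNA processing. The gene (ENSMUSG00000020280.12) lies on chromosome 11, 23665674 to 23732876, plus strand (GRCm38). Its counts were 260, 383, 337 and 213 in PUS10KO libraries 1 to 4, against 841, 942, 778 and 1082 in control libraries 1 to 4. Scaled, these were 14.3, 15.2, 14.2 and 11.5 CPM in PUS10KO and 40.9, 51.5, 40.1 and 51.8 CPM in control. Every PUS10KO library was below every control library, which held in this direction for 10.6% of all genes tested. In the other 9 genes the groups overlapped, while 9.70% of all genes had every PUS10KO library above every control library and 20.3% had no overlap either way. The mean was 13.8 ± 1.60 CPM in PUS10KO and 46.1 ± 6.46 CPM in control (SD, n = 4 each), a log2 fold change of -1.74 (SE 0.15, 95% interval -2.07 to -1.40, edgeR adjusted p = 0.000189).

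A share of the Pus10 signal remained in each PUS10KO library. Within a number it was 35.0%, 29.6%, 35.5% and 22.2% of the control level for numbers 1 to 4. The lowest count, 213 in PUS10KO 4, has an exact 95% Poisson interval of 185 to 244, and the highest in PUS10KO, 383, one of 346 to 423, which cover counting error only. Every PUS10KO interval thus lay far above 0 counts and below that of the lowest control library (778, interval 724 to 835). Counts per gene do not show which exons the remaining reads came from. By its fold change Pus10 ranked 302 from the lowest among the 11909 genes.

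The TruA enzymes modify tRNAs along the anticodon arm and elsewhere. Pus1 (ENSMUSG00000029507.16, chromosome 5, 110773667 to 110780659, minus strand) serves cytosol, nucleus and mitochondria, and its loss in humans causes a myopathy with anaemia. It had 74.3, 72.5, 43.4 and 41.2 CPM in PUS10KO libraries 1 to 4, against 46.3, 61.1, 38.6 and 30.7 CPM in control libraries 1 to 4. The groups overlapped, yet within each number the PUS10KO library was the higher. The log2 fold change was 0.39 (SE 0.27, interval -0.22 to 1.00, edgeR adjusted p = 0.412), or 0.38 (SE 0.10, adjusted p = 0.0198) with the replicate block. Pus3 (ENSMUSG00000032103.10, chromosome 9, 35558595 to 35567401, plus strand) acts on the anticodon stem-loop. Its levels were 29.9, 28.4, 17.4 and 18.3 CPM in PUS10KO and 21.7, 18.3, 14.4 and 14.7 CPM in control. It too was higher in PUS10KO within all 4 numbers and overlapped between groups, with a log2 fold change of 0.45 (SE 0.23, edgeR adjusted p = 0.259), or 0.43 (SE 0.10, adjusted p = 0.0128) with the block.

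Pusl1, a mitochondrial relative of Pus1 (ENSMUSG00000051557.15, chromosome 4, 155887879 to 155891781, minus strand), had no stable direction. PUS10KO libraries held 25.2, 22.8, 15.6 and 16 CPM and control libraries 22.2, 18.9, 17.1 and 18.3 CPM. PUS10KO was higher in numbers 1 and 2 and lower in numbers 3 and 4, and the log2 fold change was 0.06 (SE 0.19, interval -0.38 to 0.49, edgeR adjusted p = 0.889). Without PUS10KO 1 it was -0.08, and without PUS10KO 2 it was -0.02.

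Within the TruB family the genes of the stand-alone enzymes varied little and that of dyskerin was the most variable of the 10 in PUS10KO. Dkc1 (ENSMUSG00000031403.14, chromosome X, 75095854 to 75109777, plus strand) encodes the catalytic subunit of H/ACA ribonucleoproteins, which modify rRNA and spliceosomal RNA and hold the telomerase RNA. It had 184, 196, 102 and 92.4 CPM in PUS10KO libraries 1 to 4, against 100.4, 143, 74.9 and 71.4 CPM in control libraries 1 to 4. Libraries 1 and 2 stood above 3 and 4 in both genotypes, so that control 2 exceeded PUS10KO 3 and 4. The log2 fold change was 0.56 (SE 0.31, interval -0.15 to 1.27, edgeR adjusted p = 0.302), or 0.53 (SE 0.10, interval 0.31 to 0.76, adjusted p = 0.00378) with the block. Dkc1 is the X-linked member, and since Y-linked transcripts parted the same libraries, sex chromosomes and genotype cannot be told apart for it. The median log2 fold change of the 395 tested genes of chromosome X was 0.20, and Dkc1 was 0.36 above that median.

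Trub1 (ENSMUSG00000025086.13, chromosome 19, 57452912 to 57491005, plus strand) modifies the T-loop of tRNAs, where PUS10 also acts, and some mRNAs. Its levels were 20.6, 21.1, 18.2 and 16.1 CPM in PUS10KO and 17.4, 18.2, 15.2 and 15.6 CPM in control. PUS10KO was higher in all 4 numbers by 0.05 to 0.26 on the log2 scale, and neither fit called it (log2 fold change 0.20, SE 0.14, interval -0.12 to 0.52, edgeR adjusted p = 0.430, or 0.156 with the block). In the fit without the block the 95% interval for the Trub1 transcript reached up to a 1.43-fold rise. Protein and enzyme activity were not measured. Trub2 (ENSMUSG00000039826.13, chromosome 2, 29761224 to 29788502, minus strand), which works in mitochondria, had 41.3, 40.5, 34.8 and 36.4 CPM in PUS10KO and 33.8, 39.0, 34.2 and 38.0 CPM in control. Its log2 fold change was 0.08 (SE 0.11, interval -0.18 to 0.33, edgeR adjusted p = 0.717), and its coefficients of variation were the lowest of the 10 genes in both genotypes (8.18% in PUS10KO and 7.24% in control).

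The TruD pair behaved unlike each other. Pus7 (ENSMUSG00000057541.14, chromosome 5, 23740648 to 23783711, minus strand) acts on tRNAs, mRNAs and, in human stem cells, on small tRNA fragments that hold back translation. It had 127, 128, 75.4 and 70.5 CPM in PUS10KO libraries 1 to 4, against 77.8, 97.3, 48.4 and 49.5 CPM in control libraries 1 to 4. Within the numbers PUS10KO was higher by 0.71, 0.39, 0.64 and 0.51 on the log2 scale, although the groups overlapped as a whole. The log2 fold change was 0.55 (SE 0.29, interval -0.11 to 1.22, edgeR adjusted p = 0.274), or 0.56 (SE 0.08, interval 0.37 to 0.76, adjusted p = 0.00139) with the block. Pus7l (ENSMUSG00000033356.3, chromosome 15, 94522688 to 94543547, minus strand), its paralogue, had 29.2, 26.3, 21.8 and 17.6 CPM in PUS10KO and 26.1, 24.3, 15.7 and 23.8 CPM in control. Here the differences within numbers were 0.16, 0.11, 0.47 and -0.43, and the log2 fold change of 0.08 (SE 0.21, interval -0.40 to 0.55, edgeR adjusted p = 0.858) had the opposite sign without PUS10KO 1 (-0.04) or without control 3 (-0.05). Whether the fold changes of Pus7 and Pus7l differ was not tested.

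Rpusd4 (ENSMUSG00000032044.4, chromosome 9, 35267865 to 35277731, plus strand) modifies the large mitochondrial rRNA and a mitochondrial tRNA, and was the member besides Pus10 with a negative fold change. It had 14.5, 14.4, 18.3 and 14.9 CPM in PUS10KO libraries 1 to 4, against 17, 17.6, 19.8 and 16.1 CPM in control libraries 1 to 4. PUS10KO was lower in all 4 numbers, by -0.23, -0.29, -0.11 and -0.12 on the log2 scale, and neither fit called it (log2 fold change -0.18, SE 0.14, interval -0.50 to 0.13, edgeR adjusted p = 0.457, or 0.171 with the block). The 671 tested genes of chromosome 9 had a median of -0.15, and Rpusd4 was at -0.03 relative to that median. Pus3, on the same chromosome, was 0.60 above that median. For the other chromosomes of the members the median lay between -0.11 (chromosome 19) and 0.20 (chromosome X). Whether its chromosome bears on the fold change of a member was not tested.

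**Figure D2:**
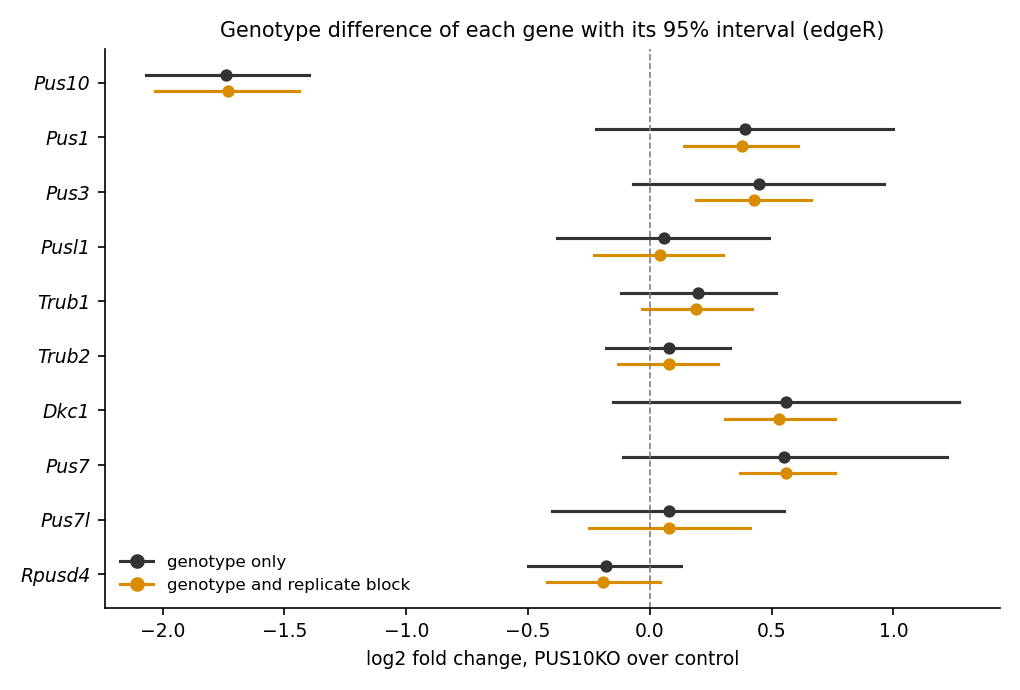
The log2 fold change of each gene (PUS10KO over control) with its 95% interval, from the edgeR fit with genotype only (black, above) and with the replicate block (orange, below). The points hardly move between the fits, while the block leaves the intervals of Pus1, Pus3, Dkc1 and Pus7 above 0 and that of Rpusd4 at -0.42 to 0.04.

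The 2 fits differed in whether variation with the number in the label was set apart from the spread between libraries. In log2 CPM, 96.5% of the sum of squares of Pus10 over the 8 libraries lay between genotypes and 1.11% between numbers. For the other 9 genes the numbers took 47.6% (Trub2) to 82.0% (Pusl1), and the genotypes 0.462% (Pusl1) to 35.4% (Rpusd4). Pusl1, with the largest share between numbers, passed in neither fit. These shares were not scaled for there being more numbers than genotypes. Dkc1 had 26.3% between genotypes, 70.1% between numbers and 3.56% left over. The same shares for Pus7 were 31.2%, 67.3% and 1.47%. The medians over all genes tested were 22.1% for genotype, 58% for number and 9.12% for the rest, so a large share between numbers was common in these libraries. The design text speaks of 4 sets, and what a number or set shares is not stated in the labels.

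**Figure D3:**
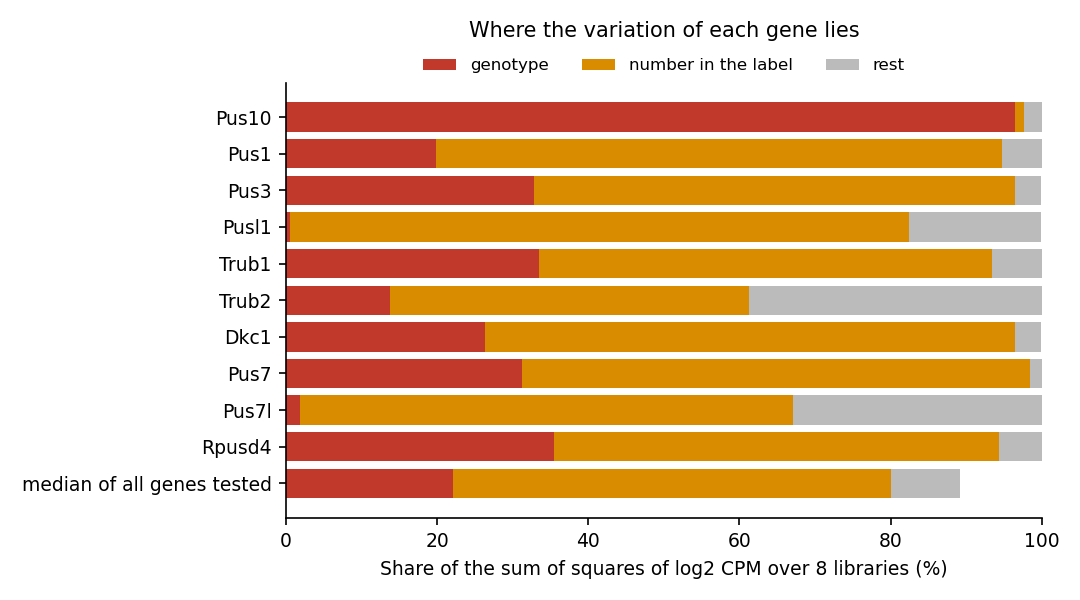
Share of the sum of squares of log2 CPM over the 8 libraries that lies between genotypes (red), between numbers (orange) and in the rest (grey), in percent, for each gene and as the medians over all genes tested, which need not add up to the whole. Pus10 has 96.5% between genotypes, against 0.462% to 35.4% in the other 9 genes.

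The direction between numbers was shared. In PUS10KO, libraries 1 and 2 both exceeded 3 and 4 for 9 of the 10 genes, where this held for 33.7% of all genes tested. In control it held for 7 of the 10 genes and 28.9% of all genes tested. Numbers 1 and 2 exceeded 3 and 4 on average by 0.97 in PUS10KO and 0.71 in control for Dkc1, on the log2 scale. For Pus7 the differences were 0.80 in PUS10KO and 0.83 in control, and for Pus1 0.79 in PUS10KO and 0.63 in control. Rpusd4 ran the other way, at -0.19 in PUS10KO and -0.05 in control. Of the 45 pairs of members, Dkc1 and Pus7 were closest over the 8 libraries, with a root mean square difference of 0.0936 in centred log2 CPM, followed by Trub1 and Trub2 (0.123), Pus1 and Dkc1 (0.131) and Pus1 and Pus7 (0.148). The farthest were Pus10 and Pus7 (1.20).

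**Figure D4:**
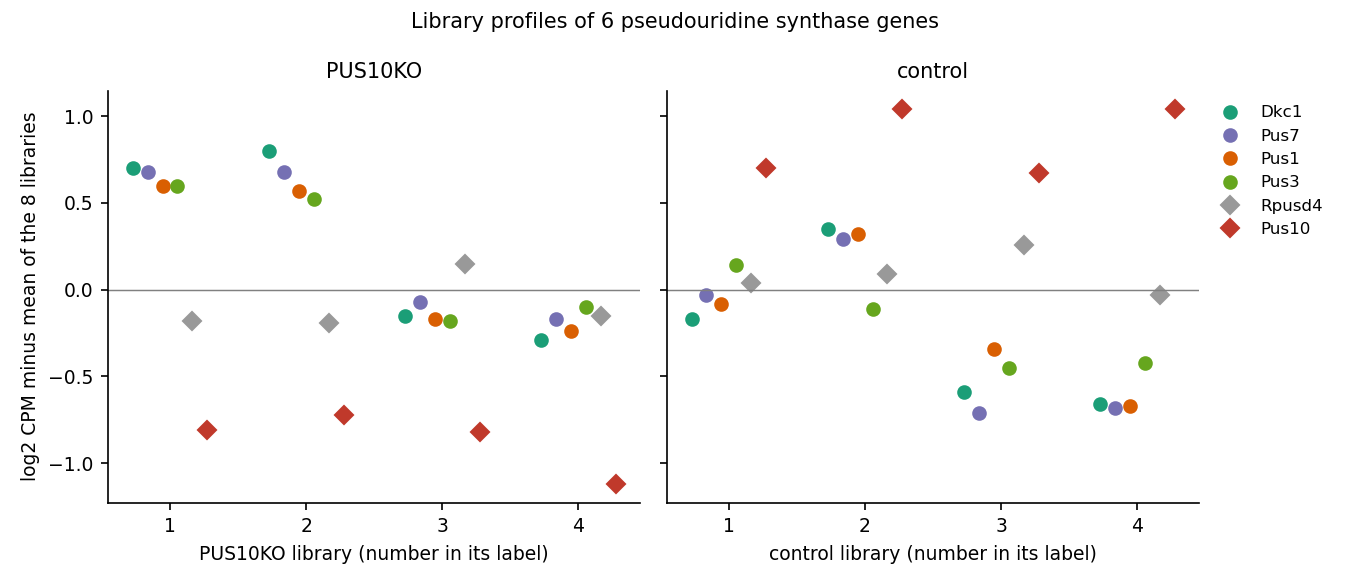
Log2 CPM of 6 of the genes in each library after subtracting the gene's mean over the 8 libraries, for PUS10KO (left panel) and control (right panel), where the libraries of a genotype have no order. Dkc1, Pus7, Pus1 and Pus3 (circles) lie 0.52 to 0.80 above their means in PUS10KO 1 and 2, while Pus10 (diamonds) lies below its mean in the PUS10KO libraries and above it in the control libraries.

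Within the numbers 5 of the 10 genes (Pus1, Pus3, Trub1, Dkc1 and Pus7) were higher in PUS10KO in all 4, and 2 (Pus10 and Rpusd4) were lower in all 4. Of all genes tested 28.4% were higher and 26.9% lower in all 4 numbers, 55.3% together. The largest single difference among the 9 genes besides Pus10 was 0.87, for Dkc1 in number 1. Among the authors' deposited normalized values, from which differences between numbers had been removed, the mean difference (PUS10KO minus control) was 0.51 for Dkc1, 0.53 for Pus7, 0.35 for Pus1, 0.35 for Pus3 and -1.44 for Pus10. No source used here states the scale of that table. By its values it is a log2 scale.

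To compare levels between genes, CPM were divided by the length of the merged exons of each gene in kilobases. Dkc1 was the most abundant in both genotypes, at 34.8 ± 13.1 CPM per kilobase in PUS10KO and 23.7 ± 8.07 CPM per kilobase in control (SD, n = 4 each), a control level above that of 80.9% of tested genes. Pus1 came next, at 26.5 ± 8.25 CPM per kilobase in PUS10KO and 20.3 ± 5.94 CPM per kilobase in control. It was below Dkc1 in all 8 libraries, though the ranges of these neighbours overlapped. Pus10 moved in this order more than any other member. It stood last in PUS10KO, at 3.20 ± 0.37 CPM per kilobase, and next after Pus1 in control, at 10.7 ± 1.49 CPM per kilobase. Trub1 was at the low end in both, at 3.40 ± 0.417 CPM per kilobase in PUS10KO and 2.97 ± 0.257 CPM per kilobase in control.

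Most neighbours in the order overlapped in their ranges over libraries. In PUS10KO the order after Pus1 was Pus7, Pusl1, Pus3, Pus7l, Trub2, Rpusd4, Trub1 and Pus10, and the ranges of neighbours were apart only between Pus1 and Pus7 and between Rpusd4 and Trub1. In control the order after Pus1 was Pus10, Pus7, Pusl1, Pus7l, Rpusd4, Pus3, Trub2 and Trub1, with gaps only between Pus1 and Pus10 and between Trub2 and Trub1. Compared within each library, the higher of 2 neighbours was above the next in all 4 libraries for Dkc1, Pus1, Pus7, Pusl1 and Rpusd4 in PUS10KO and for Dkc1, Pus1, Pus10, Pusl1 and Trub2 in control, 5 of 9 in each. Of the summed level of the 10 genes Pus10 made up 2.88 ± 0.588% in PUS10KO and 11 ± 2.30% in control, and Dkc1 29.4 ± 3.39% in PUS10KO and 23.4 ± 3.28% in control. The sum itself was 85.1 to 143 CPM per kilobase in PUS10KO and 83.5 to 124 CPM per kilobase in control. The length matters for this order. Measured by the longest transcript, Pus7 was at 27.5 ± 8.62 CPM per kilobase in PUS10KO and 18.7 ± 6.49 CPM per kilobase in control, against 12.1 ± 3.79 and 8.24 ± 2.85 by merged exons, and Pus10 stood below Pus7 and Pusl1 in control.

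**Figure D5:**
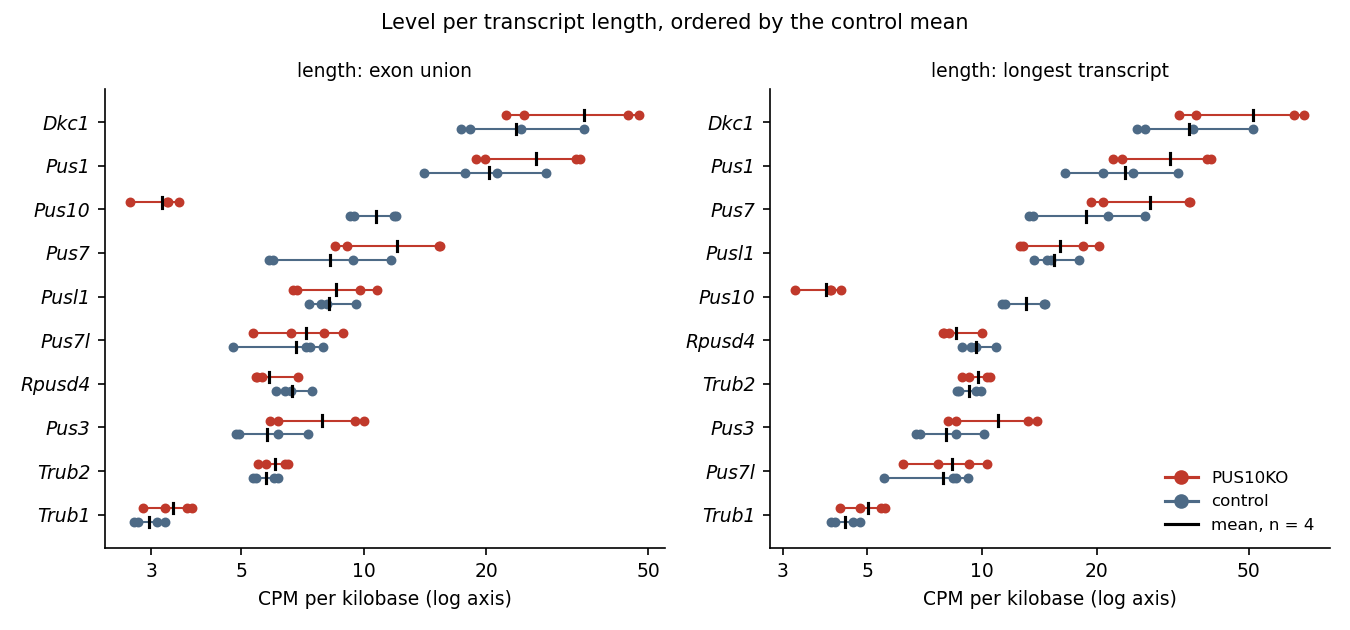
Level in CPM per kilobase (log axis) in the PUS10KO libraries (red, above) and control libraries (blue, below) of each gene, with the mean as a black bar, by merged exon length (left) and by the longest transcript (right). Dkc1 is at the top under both lengths, and Pus10 in PUS10KO, at 3.20 CPM per kilobase by merged exons, lies among the values of Trub1.

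Several members overlap, or start close to, a gene on the other strand, which bears on counts whose strand setting was not given in the sources used here: reads of a gene and of its antisense partner may not have been told apart. Pus10 overlaps Pex13, a gene of peroxisomal import, by 286 bases at their starts. Pex13 had 67.0 ± 4.41 CPM in PUS10KO and 53.3 ± 9.32 CPM in control (SD, n = 4 each), with a log2 fold change of 0.33 (edgeR adjusted p = 0.180, or 0.0164 with the block), so the gene that shares the start of Pus10 was not lower with it. Rpusd4 starts 60 bases from Fam118b. That neighbour fell to 17.3 ± 3.71 CPM in PUS10KO, against 28.9 ± 3.82 CPM in control (log2 fold change -0.74, edgeR adjusted p = 0.0261), a larger change than that of Rpusd4. All overlaps given here are of gene spans, introns included. That of Pus3 with Hyls1 is 6582 bases, so antisense reads of Hyls1 could be among those of Pus3. Pusl1 overlaps Ints11 by 1225 bases, Trub2 overlaps Coq4 by 1010 bases and Dkc1 overlaps Mpp1 by 45 bases. The log2 fold changes of Hyls1, Ints11, Coq4 and Mpp1 ran from -0.29 (Hyls1) to 0.23 (Coq4), and none passed the test in either fit. Other overlapping genes had no row in the count table. On the other strand, Pus1 overlaps Gm15559 by 5594 bases and Gm26515 by 778 bases. Likewise, Trub2 overlaps Gm13547 by 2866 bases and Trub1 overlaps Gm26874 by 1982 bases. On the same strand, Dkc1 overlaps the snoRNA gene Gm25520 by 118 bases. Whether reads were shared was not tested.

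The promoters of the members were read from RefSeq sequences (GRCm38.p6), in windows of 300 bases that lie mostly before each start, and all 10 genes had at least 1 such window. The motif CACGTG, a palindrome called the E-box and bound by several factors including MYC, was in the window of 5 of the 10 genes. Over all 32851 windows 7.15% held it, and among the 9512 tested genes with a window 11.9% did. Pus1, Pus3 and Pus7, which rose with the block, had it, and so did Pusl1 and Rpusd4, which did not. The window of Dkc1 lacked these letters, as did those of Pus10, Trub1, Trub2 and Pus7l. The sites are shown because genes of 3 families share them, with the 6 letters of the E-box in capitals, on the strand of the gene:
Pus1: tccgccttcgtgCACGTGgtcagcttcggg
Pus3: tctcgcccctggCACGTGctgccacccccg
Pusl1: tcgaccgcgggcCACGTGcaagcgccccgc
Pus7: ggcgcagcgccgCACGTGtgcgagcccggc
Rpusd4, first: cgcgcaccgcccCACGTGacccgtaggcta
Rpusd4, second: aggctacctgccCACGTGatcagcagggcc

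These stretches of 30 bases lie at chr5:110780576-110780605 (Pus1, minus strand), chr9:35558416-35558445 (Pus3, plus strand), chr4:155891718-155891747 (Pusl1, minus strand), chr5:23783666-23783695 (Pus7, minus strand), and chr9:35267784-35267813 and chr9:35267808-35267837 (Rpusd4, plus strand). In Pus1, Pusl1 and Pus7 the motif begins at base 23, 28 and 29 of the transcript, and in Pus3 and Rpusd4 it lies before the start. Over all tested genes the median log2 fold change was -0.02 over the 1128 tested genes that hold it and 0.01 over the 8384 that do not. A match describes the letters and is no evidence that a factor binds there. Other motifs were searched on both strands too. CCAAT was in windows of 5 members (Pus10, Pus3, Trub1, Dkc1 and Pus7l) and 37.4% of all windows. GGGCGG, the GC box, was in those of 8 members and 35.7%, and CCGGAAG, an ETS core, in that of Pus7l and 8.86%. A member counted if any of its windows held the motif, while the shares are per window, so the members have more chances of a match. The cores of the NRF1 site and of the interferon response element, in 1.75% and 3.44% of all windows, were in none of the members' windows.

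A list of H/ACA partners and assembly factors of Dkc1 also held Tert and Parn. Of its 11 tested genes 0 passed edgeR's test, where 13.0% of all genes did. Unadjusted p-values under 0.05 were found for 2, of which 1 was Tert. The median log2 fold change of the 11 was 0.34, against 0.01 over all genes tested. With the block 5 of the 11 rose and none fell, where 19.1% of all genes rose and 19.9% fell. Nhp2 and Nop10, core subunits beside dyskerin, were the most abundant per length. Nhp2 had 162 ± 61.3 CPM in PUS10KO and 117 ± 31.8 CPM in control (SD, n = 4 each), with a log2 fold change of 0.47 (edgeR adjusted p = 0.355, or 0.00590 with the block). Nop10 had 94.2 ± 11 CPM in PUS10KO and 84.5 ± 13.2 CPM in control (log2 fold change 0.16, edgeR adjusted p = 0.539, or 0.124 with the block). Tert, the catalytic subunit of telomerase, named after its values were seen, had the largest fold change of the list, with 5.99 ± 1.06 CPM in PUS10KO and 3.17 ± 0.995 CPM in control (log2 fold change 0.91, SE 0.28, edgeR adjusted p = 0.0639, or 0.00468 with the block).

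Among the 3 other synthases of the RluA family none passed the test, where 13.0% of all genes did. With the block 1 rose, where 19.1% of all genes did. Rpusd1 had a log2 fold change of 0.04 (edgeR adjusted p = 0.914) and Rpusd3 -0.02 (edgeR adjusted p = 0.970). Rpusd2, named after its values were seen, had 8.23 ± 1.95 CPM in PUS10KO and 5.57 ± 0.602 CPM in control (SD, n = 4 each), with a log2 fold change of 0.56 (edgeR adjusted p = 0.128, or 0.0186 with the block).

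A list of 5 genes of mitochondrial rRNA held Rcc1l, Ngrn and Fastkd2, which work with Rpusd4 and Trub2 on the large rRNA, and also Nsun4 and Mterf4, which act together on the small rRNA and in ribosome assembly. Of these 5 genes 0 passed, where 13.0% of all genes did, and 0 had an unadjusted p under 0.05. With the block 1 rose, where 19.1% of all genes did. The median log2 fold change of the 5 was 0.11, against 0.01 over all genes tested. The most abundant per length were Rcc1l (log2 fold change 0.14, edgeR adjusted p = 0.684) and Ngrn (0.33, edgeR adjusted p = 0.270, or 0.0431 with the block).

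Of 5 tested genes listed for tRNA T-loop modification 0 passed, where 13.0% of all genes did. Unadjusted p-values under 0.05 were found for 0 of the 5. With the block 2 of the 5 rose and 1 fell, where 19.1% of all genes rose and 19.9% fell. The most abundant per length were Trmt10c and Trmt2a, with log2 fold changes of 0.01 and -0.11 (edgeR adjusted p = 0.982 and 0.752). Trmt10c is in the list although it methylates mitochondrial tRNAs outside the T-loop. The genes that moved with the block are named here after their values were seen. Trmt6 and Trmt61a, the subunits of a methyltransferase of the T-loop, moved in opposite directions in that fit. Trmt6 had 89.7 ± 30.1 CPM in PUS10KO and 63.4 ± 15.3 CPM in control (SD, n = 4 each), and rose with the block (log2 fold change 0.47, adjusted p = 0.00458). Trmt61a had 17.9 ± 10.6 CPM in PUS10KO and 27.9 ± 12.6 CPM in control, and fell with the block (log2 fold change -0.72, adjusted p = 0.00215). Trmt2b, a mitochondrial methyltransferase, rose with the block (log2 fold change 0.27, adjusted p = 0.0369).

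Of 10 tested genes in a list of other tRNA modification and maturation genes 1 rose and 2 fell, where 13.0% of all genes passed. An unadjusted p under 0.05 was found for 4 of the 10. With the block 4 rose and 2 fell, where 39.0% of all genes passed. Thg1l, which adds a guanosine to the end of histidine tRNA, rose to 40.5 ± 6.38 CPM in PUS10KO, against 26.4 ± 2.61 CPM in control (SD, n = 4 each). Adat2, a subunit of the tRNA adenosine deaminase, fell to 11.1 ± 1.68 CPM in PUS10KO, against 18.1 ± 2.20 CPM in control. Mettl1, a tRNA methyltransferase, had 21.6 ± 1.64 CPM in PUS10KO and 30.5 ± 1.86 CPM in control, and fell. The log2 fold changes were 0.61, -0.70 and -0.50 (edgeR adjusted p = 0.0238, 0.0224 and 0.0231). In the list of microRNA processing factors 0 of 6 passed, where 13.0% of all genes did. An unadjusted p under 0.05 was found for 1, and with the block 1 fell, where 19.9% of all genes did. Ddx5 and Ddx17, RNA helicases and the most abundant genes of that list per length, had log2 fold changes of 0.06 and 0.08. Dicer1, named after its values were seen, had the low unadjusted p and fell with the block. It had 41.5 ± 6.90 CPM in PUS10KO and 60.9 ± 12.5 CPM in control (log2 fold change -0.55, edgeR adjusted p = 0.0834, or 0.00133 with the block).

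The genes whose 8 library values ran closest to those of Pus10, by the root mean square difference of centred log2 CPM, were Stk16 (0.168), Anapc16 (0.201), Cep290 (0.215), Pgap1 (0.227) and Cisd3 (0.231). They lie on chromosomes 1, 10, 10, 1 and 11. Stk16, a protein kinase gene, had 18.9 ± 2.03 CPM in PUS10KO and 56.4 ± 5.87 CPM in control (SD, n = 4 each), and Anapc16, of the anaphase-promoting complex, 18.9 ± 0.81 CPM in PUS10KO and 75.4 ± 10.9 CPM in control. The log2 fold changes of the 5 genes ran from -2.04 (Cep290) to -1.58 (Stk16), on either side of the -1.74 of Pus10. As the 5 were chosen for closeness to Pus10 over these same libraries, similar fold changes follow from the choice.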

How the data were processed

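Whole-number counts of reads per gene, not normalized, were deposited by the authors for 8 libraries. STAR 2.7.8a, DESeq2 and mm10 are named in the submitters' processing notes; the counter, its strand setting and the annotation were not found in the sources used here. A second table deposited by the authors holds normalized values, by their range (5.13 to 18.12) on a log2 scale, in which the PUS10KO and control values of a gene had the same sum in each number (tolerance 1e-06).

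The analysis of counts used edgeR 4.0.16 in R 4.3.3 (filterByExpr, TMM, robust quasi-likelihood test, genotype as the only term) and Benjamini-Hochberg adjustment at 0.05. The SE is the size of the log2 fold change divided by the root of the F statistic. Log2 CPM used a prior count of 2. DESeq2 1.42.0, limma-voom (limma 3.58.1), DESeq2 size factors, no filter, a replicate block, and each library left out were alternatives. The fit was tested on simulated data. Positions and lengths came from GENCODE (GRCm38), matched for 99.9% of rows. Each pair of libraries within a genotype differed by more than sampling noise (chi-square at least 17.75 times its degrees of freedom).

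Deviations from the genotype means correlated across genes between same-numbered libraries (r = 0.681, 0.722, 0.633 and 0.687 for numbers 1 to 4, while the same PUS10KO library reached, with differently numbered control libraries, up to 0.303, 0.0416, 0.582 and 0.503), and genes are not independent replicates. A second fit therefore treated the numbers as pairs through the replicate block, while the main fit had genotype as its only term. This pairing comes from the counts, and the labels do not say what a number shares. The genes named were the 10 members, in each list up to 4 called genes or else the 2 of highest level per length, and the 5 nearest Pus10, with exceptions marked. The members and lists were chosen with earlier results of these data known. Counting intervals cover counting error only.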

Additional observations from a re-analysis of the deposited data

Results flagged for a closer look

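Rpusd4 in PUS10KO 3 stood apart from the other libraries of its genotype, at 18.3 CPM against 14.4 to 14.9 CPM in the other 3. The gap took up 0.876 of the range of the 4 values. Such a gap was looked for in 20 sets of 4 values (10 genes in 2 genotypes) and found in 1, and chance gives about 1 in 20. Control 3 was also the highest control library for this gene (19.8 CPM).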

How the results depend on the processing

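Pus10 was called in each alternative test tried, and its log2 fold change was -1.90 relative to the median of its chromosome. The number of genes called moved more. DESeq2 called 1146 genes higher and 1287 lower, against 703 and 847 in the edgeR fit, and leaving out 1 library in turn gave 492 to 638 higher and 520 to 728 lower (560 lower without PUS10KO 2, 520 without PUS10KO 3). With the replicate block, which follows the pairing by number, 2273 genes were higher and 2368 lower, and 4 members rose where 0 did without it: Pus1 (0.38), Pus3 (0.43), Dkc1 (0.53) and Pus7 (0.56). The authors' deposited normalized values, an alternative chosen after seeing the data and tested by limma with the block, gave 2400 higher and 2405 lower, and the same 4 members higher, Pus1 (0.35), Pus3 (0.35), Dkc1 (0.51) and Pus7 (0.53). The block changed no other call among the members.

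Members near 0 changed sign. Pusl1 ran from -0.08 to 0.16 when 1 library was left out (-0.02 without PUS10KO 2), and Pus7l from -0.05 to 0.20 (-0.04 without PUS10KO 1). Relative to the median of their chromosomes Pus7l was at -0.06 and Trub2 at -0.01. Rpusd4 kept its sign at -0.03 relative to its chromosome. The cause was not tested. At counts of 213 to 4929 per member and library, counting error (6.85% to 1.42%) was below the spread between libraries of a genotype.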
